A study of Mus musculus with 18 samples.

Results

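The regions described here lie on hippocampal mRNAs that carried many separate ac4C sites. They were selected on the lists of ac4C peaks themselves. Listed peaks of all 6 acRIP samples that overlapped by at least 1 bp on a chromosome were merged into 1 region, and every region of an mRNA with 5 or more merged regions was taken. This gave 1794 of 9374 merged regions (19.1%), on 275 of the 4922 mRNAs with any listed peak (5.59%). The number of regions per mRNA was therefore what chose them and is given only as a description.

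The lists came from hippocampus of mice aged 3 months, 3 samples of 5×FAD and 3 of WT. The 5×FAD line carries transgenes for human APP and human presenilin 1 with mutations of familial Alzheimer's disease, driven by the murine Thy-1 promoter, which acts mainly in neurons. WT mice lack the transgenes. The paper calls the 3 acRIP-seq samples of each genotype independent, and its discussion speaks of biological replicates. In acRIP-seq, fragments of RNA are pulled down with an antibody against ac4C, and a peak is a stretch where they pile up over the input RNA of the same sample. Fold enrichment (FE) is the height of a peak as deposited, the acRIP signal less that of an IgG pulldown over the input. A region counted as called in a genotype with a peak in 2 or 3 of that genotype's 3 samples, and "alone" means that the other genotype was not called.

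N4-acetylcytidine is an acetyl group on the base of cytidine in RNA. In mammals it is written by NAT10, which also acetylates ribosomal and transfer RNA, and in mRNA it has been tied to mRNA stability and to the speed of translation, mostly from work in cultured cells. A peak of acRIP-seq is a stretch of RNA and does not show which cytidine in it is acetylated.

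The 5×FAD samples listed 3734 to 3921 peaks and the WT samples 4151 to 4558. Peaks in the selected regions made up 18.6% to 19.1% of the 5×FAD lists and 19.2% to 19.4% of the WT lists, 4716 peaks in all. Their FDR, read as percent, ran between 20.15% and 100% with a median of 26.5%. The column does not name its scale, and the methods state a lower limit than any of these values, so the scale is not settled. The lists hold no read counts, and the depth per sample is unknown. Of 8 markers of neurons, 7 had a listed peak, of 5 of astrocytes 5, of 5 of oligodendrocytes 4, of 4 of microglia 2 and of 3 of endothelium 2. Of 5 genes that mark hippocampal neurons, 2 had a peak (Zbtb20 and Grik4), and Prox1, Neurod2 and Wfs1 had none. Fewer cells of a type and less RNA per cell cannot be told apart in such bulk tissue, and mRNA abundance was not analysed here.

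The coding stretches below show what such regions are. They are the shortest coding regions of at least 40 nt of each call on Syne1, Dync1h1, Kif1a and Dst, the 4 mRNAs with the most regions, printed on the sense strand from the RefSeq genome of the same build (GRCm38, mm10). Syne1 encodes a giant nesprin that ties the nucleus to the cytoskeleton, Dync1h1 the heavy chain of cytoplasmic dynein, Kif1a a kinesin that carries synaptic vesicle precursors, and Dst the cytoskeletal linker dystonin. Capitals mark matches of the triplet CNN (N is any base) repeated 4 times, a spacing of cytidines that has been described for acetylated mRNA. Exon numbers here and below are those of the RefSeq transcript model chosen for each mRNA. Their positions are chr10:5193100-5193172, minus strand, and chr10:5130053-5130141, minus strand, for Syne1, chr12:110631745-110631803, plus strand, and chr12:110652152-110652194, plus strand, for Dync1h1, chr1:93066134-93066189, minus strand, chr1:93058849-93058897, minus strand, and chr1:93068485-93068560, minus strand, for Kif1a, and chr1:34174697-34174795, plus strand, and chr1:34219396-34219525, plus strand, for Dst, in the order shown.
Syne1 exon 92, 5×FAD alone: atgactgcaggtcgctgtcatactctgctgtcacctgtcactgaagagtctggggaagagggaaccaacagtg
Syne1 exon 108, WT alone: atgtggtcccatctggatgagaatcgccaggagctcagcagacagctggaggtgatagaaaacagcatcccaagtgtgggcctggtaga
Dync1h1 exon 26, 5×FAD alone: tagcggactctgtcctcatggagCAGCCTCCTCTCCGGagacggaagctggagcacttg
Dync1h1 exon 51, WT alone: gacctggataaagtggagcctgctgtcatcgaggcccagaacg
Kif1a exon 13, 5×FAD alone: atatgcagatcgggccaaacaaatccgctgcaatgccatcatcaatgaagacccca
Kif1a exon 19, WT alone: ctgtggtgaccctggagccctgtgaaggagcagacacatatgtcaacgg
Kif1a exon 11, both genotypes: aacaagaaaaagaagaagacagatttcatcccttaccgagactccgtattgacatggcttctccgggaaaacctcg
Dst exon 35, 5×FAD alone: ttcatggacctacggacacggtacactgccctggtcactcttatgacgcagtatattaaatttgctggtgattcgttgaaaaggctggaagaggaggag
Dst exon 57, WT alone: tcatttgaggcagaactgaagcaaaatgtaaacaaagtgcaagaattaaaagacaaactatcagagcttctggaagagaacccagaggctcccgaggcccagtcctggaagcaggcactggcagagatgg

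The Dync1h1 stretch of exon 26 holds 2 overlapping matches and the other 8 stretches hold none. Its FE was 35.7, 30.0 and 28.5 in the 5×FAD samples, and no WT sample listed a peak there. Some printed calls rested on 2 of 3 samples, and their FE could be low. The Dync1h1 stretch of exon 51 had FE of 1.91, 0 and 2.33 in WT. The Kif1a stretch of exon 13 had no peak in 5×FAD replicate 1 and an FE of at most 2.97 in the others. The Syne1 stretch of exon 92 had FE of 0, 150 and 92.0 in 5×FAD. The stretch of Kif1a exon 11, a whole exon of 76 nt, had a peak in all 6 samples, with FE of 7.20, 9.65 and 7.49 in 5×FAD, against 15.2, 15.1 and 14.6 in WT. The whole exon 35 of Dst, 99 nt long, had FE of 9.14, 11.9 and 23.7 in the 5×FAD samples and none in WT, and the whole exon 57, 130 nt long, had none in 5×FAD and 21.1, 19.5 and 28.4 in WT.

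The mRNAs with many regions were long. Their median length was 6845 nt over the 274 with a RefSeq transcript model, with quartiles of 4485 and 9999 nt. The 4520 mRNAs with 1 to 4 regions and a model had a median of 3648 nt. The median number of exons was 23 for the selected mRNAs and 11 for the others. Of the 109 listed mRNAs of at least 12000 nt, 43 were selected (39.4%), while of the 839 below 2000 nt 3 were (0.358%). Across all 4794 mRNAs with a model, Spearman's rho of the number of regions was 0.26 with the length of the mRNA and 0.31 with the number of exons, given as a description.

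**Figure D1:**
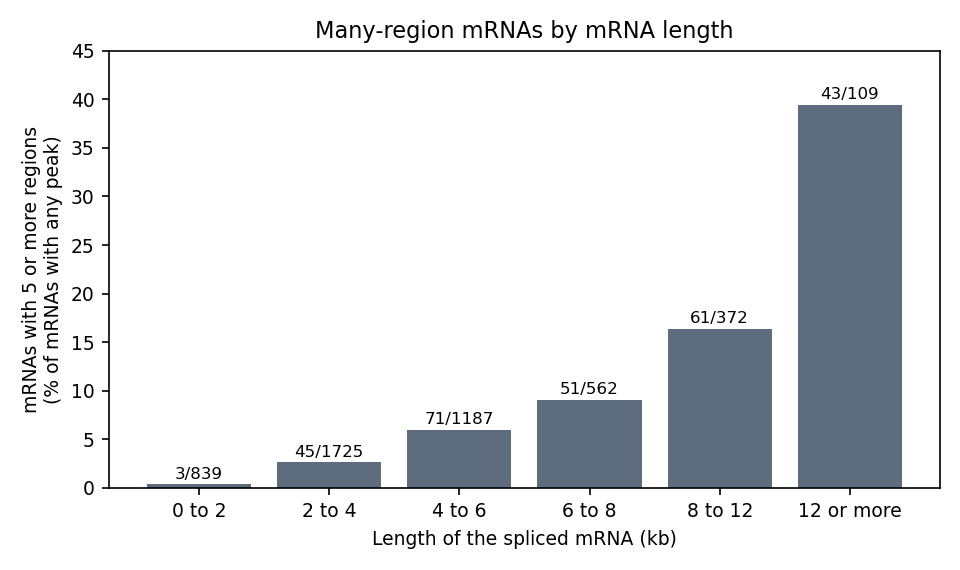
Share of mRNAs with a listed peak that held 5 or more merged regions (%, y axis) by the length of the spliced mRNA (kb, x axis); the numbers over the bars are selected mRNAs over all mRNAs of that length. The share was higher in each longer class, between 0.358% below 2 kb and 39.4% at 12 kb or more.

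Most selected mRNAs stood near the limit. Of the 275, 138 had exactly 5 regions, and 30 had 10 or more. The 243 mRNAs just outside, with 4 regions each, had a median length of 4866 nt, against 5751 nt for those with 5. Their 972 regions divided into 336 called in 5×FAD alone, 422 in WT alone, 58 in both and 156 in neither, and the 690 regions of the mRNAs with 5 into 267, 294, 35 and 94.

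The genes were sorted by symbol lists that were written with earlier results of these data known, and each list is to be read against the 5.59% of all listed mRNAs that were selected. Of 18 listed spectrins, ankyrins and other scaffolds beneath the membrane, 13 were selected (72.2%), among them Dst, Macf1, Sptbn1, Ank2, Ank3, Sptan1 and Plec. These very large proteins link the membrane, actin and microtubules in axons. Of 50 motors and microtubule-associated proteins, 10 were selected, with the dynein heavy chain Dync1h1, the kinesins Kif1a, Kif1b, Kif5a and Kif5c and the microtubule-associated Map1b, Map2 and Map4. Of 91 genes on the channel list, 10 were selected, among them the calcium release channels Itpr1 and Ryr2 and the AMPA receptor subunits Gria1 and Gria2. Others were the NMDA receptor subunit Grin2b, the calcium channels Cacna1a and Cacna1e, and Gabbr1, a GABA-B receptor subunit that is not a channel. Transporters and pumps gave 19 of 136, with the calcium pump Atp2b2 and the glutamate transporter Slc1a2 of astrocytes. Kinases and phosphatases gave 18 of 160, with Camk2a, the calcium-dependent kinase of the postsynapse. Exchange factors and activators of small GTPases gave 14 of 84, with Kalrn and Trio, which shape dendritic spines, and chromatin regulators gave 13 of 104, with the remodeller Chd3. Near the share over all mRNAs were proteins of endosome, Golgi and trafficking (7 of 125), of the ubiquitin system (9 of 138) and metabolic and lipid enzymes (4 of 60). At the other end, 3 of 142 zinc finger and other DNA-binding factors and 0 of 48 chaperones were selected. The lists were not tested or matched for mRNA length. In all, 117 of the 275 were in none of the lists. One of them, Kcnq1ot1, is a noncoding RNA.

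Syne1 held the most regions, 25 over an mRNA of 28647 nt and 146 exons. Its regions covered 8.99% of the mRNA. They lay in runs, with 8 regions on exons 1 to 33, 16 on exons 91 to 146 and none over the 12885 nt between exons 33 and 91. Dync1h1 followed with 20 regions, all in the coding sequence and spread over exons 7 to 72, and covering 20.7% of its mRNA. Dst and Kif1a had 18 each, Kalrn 16, Itpr1 14 and Lrp1, a large endocytic receptor for apolipoprotein E, 13. Sptbn1 (a beta spectrin), Macf1 (a spectraplakin), the ubiquitin ligase Huwe1, the potassium channel partner Dpp6 and Ryr2 had 12 each. Kif1a and Dpp6 were the densest of these, with 2.18 and 2.54 regions per kb of mRNA, while Syne1 had 0.873 and Macf1 0.511. Over the 274 mRNAs with a model, the regions covered 2.44% to 74.9% of the mRNA, with a median of 12.9%, at a median of 0.911 regions per kb.

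**Figure D2:**
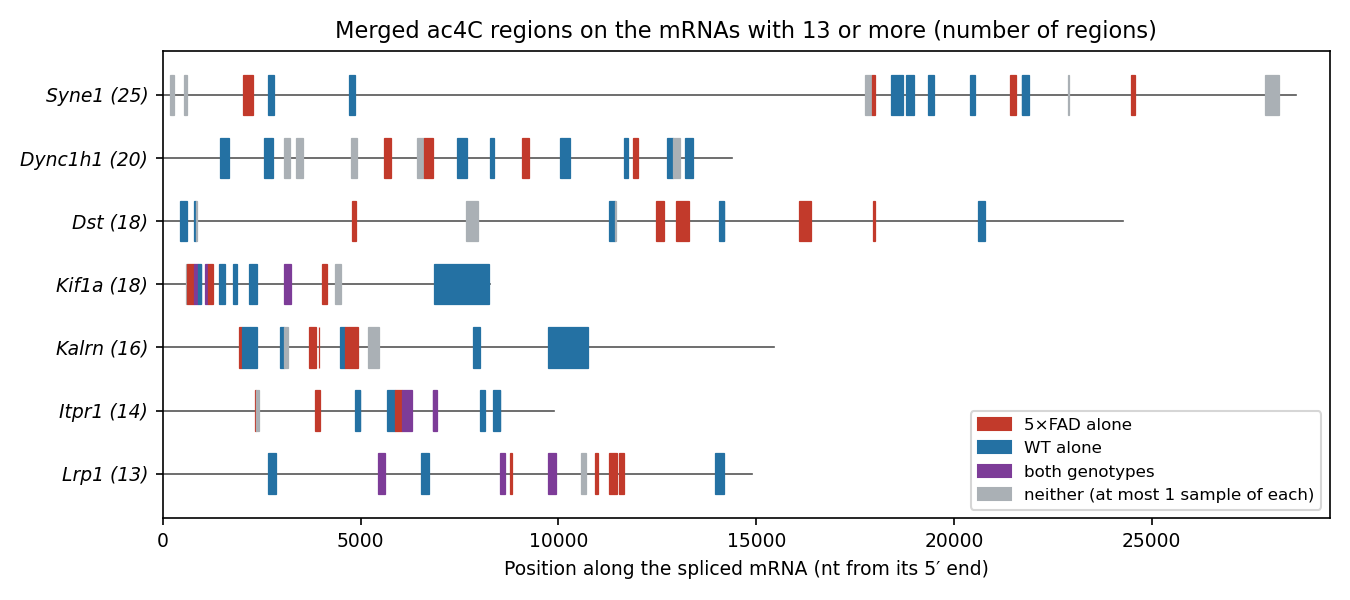
Merged ac4C regions (boxes, to scale along x) on the 7 mRNAs with 13 or more, by position along the spliced mRNA (nt from the 5′ end, x axis); each row is 1 mRNA with its number of regions, and grey lines are the mRNAs. Red boxes are regions called in 5×FAD alone, blue in WT alone, purple in both genotypes and grey in neither; Kif1a carries 14 of its 18 regions in its first 2388 nt, and each of the 7 mRNAs has both red and blue boxes. Regions outside the exons of the chosen model are not drawn.

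By the authors' labels, 1340 of the 1794 regions (74.7%) lay inside the coding sequence, 122 (6.80%) at the stop codon, 92 (5.13%) at the start codon, 178 (9.92%) in the 3′UTR and 62 (3.46%) in the 5′UTR. Of the 7580 regions on mRNAs with 1 to 4, 55.4% were coding, 15.6% lay at the stop codon and 10.5% at the start codon. Since an mRNA has 1 start and 1 stop codon, many regions on 1 mRNA must lie elsewhere. The selected regions were shorter, with a median of 123 bp against 178 bp. Peaks in them were also lower in all 6 samples. Their median FE was 15.3, 15.5 and 16.3 in the 5×FAD samples and 17.0, 18.3 and 17.9 in WT, while that of all other peaks was 21.9, 24.0 and 24.6 in 5×FAD and 25.1, 26.2 and 25.9 in WT.

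Exons set the bounds of these regions. Of the 1746 regions that could be placed on exons of a transcript model, none touched more than 1 exon, 55 (3.15%) reached past the end of theirs, 1449 (83.0%) began or ended exactly at an end of that exon, and 539 (30.9%) were 1 whole exon. The lists thus give each exon its own peak, also where the spliced mRNA runs on without a break. In genome coordinates, the 1519 gaps between neighbouring regions of an mRNA had a median of 4443 bp and quartiles of 1470 and 14130 bp, introns included. Along the spliced mRNA, the median of 1472 gaps was 260 nt, with quartiles of 0 and 883 nt. The lower quartile is 0 because 462 pairs (31.4%) met across an intron with no base between them, and 113 pairs (7.68%) shared an exon. A distance of 1000 nt or less separated 78.4% of all pairs. Without the pairs that met, the median gap was 584 nt.

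The shortest median gaps in the genome were those of Chd3 (396 bp), Chrm1 (494 bp) and Pip4k2b (634 bp), and the longest those of Astn2 (172372 bp), Tenm2 (233870 bp) and Dmd (312788 bp). Chrm1, a muscarinic acetylcholine receptor, has its 5 regions in 1 exon, so its gaps are the same along the mRNA. In Dmd, the dystrophin gene, the largest gap in the genome was 874414 bp, but 5620 nt along the mRNA. Astn2 and Tenm2, both neuronal membrane proteins of development, had largest gaps of 720 and 2724 nt along the mRNA. The long gaps of these genes in the genome were those of their introns.

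Where regions that met across an intron were counted as 1, the 1794 regions formed 1332 blocks, and 129 of the 275 mRNAs still had 5 or more. The longest runs held 5 regions each. In Kif1a such a run covered exons 5 to 9 (393 nt), and in Mical2, which oxidises actin, exons 9 to 13 (682 nt). Cyfip2, of the complex that drives branched actin, had 4 regions on exons 21 to 24 and 4 more on exons 25 to 28. Peaks on either side of an intron mostly differed in height. In samples that listed both, the larger FE of such a pair was a median of 1.46 times the smaller over 933 pairs of peaks, and 17.9% of pairs were within 1.1-fold. For neighbours 1 to 1000 nt apart on other exons the median ratio was 2.58 over 755 pairs, with 6.36% within 1.1-fold. Some pairs were nearly equal in every sample. Exons 1 and 2 of Krt8 had FE of 383 and 385, 466 and 470, and 403 and 406 in 5×FAD replicates 1, 2 and 3, and exons 1 and 2 of Mbp had 313 and 314, 326 and 325, and 301 and 303 in the WT replicates.

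By genotype, 640 of the 1794 regions (35.7%) were called in 5×FAD alone, 776 (43.3%) in WT alone, 96 (5.35%) in both and 282 (15.7%) in neither. Over all 9374 merged regions these shares were 36.3%, 43.1%, 5.30% and 15.3%, so the split of the selected regions was near that of the whole lists. The calls rested on all samples in most cases. In 455 of the 1794 regions all 3 5×FAD samples and no WT sample had a peak, and in 523 all 3 WT samples and no 5×FAD sample did. A peak in all 6 samples was found in 51. Over all 9374 merged regions these numbers were 2428, 2778 and 245, which are shares near those of the selected regions. Regions called in 5×FAD alone and in WT alone were alike in place (75.0% and 76.5% coding), in median length (118 and 110 bp) and in the median FE of their peaks (17.6 and 17.5), while peaks of regions called in neither had a median FE of 6.93.

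The count of 5 regions was mostly reached by adding up both genotypes. Of the 275 mRNAs, 63 had 5 or more regions with a peak in some 5×FAD sample, 77 in some WT sample, and 20 in both. The other 155 (56.4%) were under 5 in either genotype. Both kinds of region sat on 220 of the mRNAs (80.0%), 109 had more regions called in 5×FAD alone, 136 had more called in WT alone, and 30 had as many of each. No such shares over all listed mRNAs are given beside them, so they describe the selected mRNAs only. Among the 13 selected spectrins, ankyrins and scaffolds, 8 had more regions called in WT alone and 3 more in 5×FAD alone, with 38 regions called in 5×FAD alone and 51 in WT alone. Motors and microtubule-associated proteins had 23 regions called in 5×FAD alone and 45 in WT alone, and ubiquitin ligases 17 and 32. Synaptic scaffolds and vesicle proteins had 18 and 16, chromatin regulators 39 and 37, and the metabolic enzymes, with 4 mRNAs, 12 and 6. These splits were not tested. In single samples the regions with a peak numbered 692 to 742 in 5×FAD and 794 to 882 in WT, and 33 to 44 mRNAs had 5 or more of them in a 5×FAD sample, against 44 to 55 in a WT sample.

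**Figure D3:**
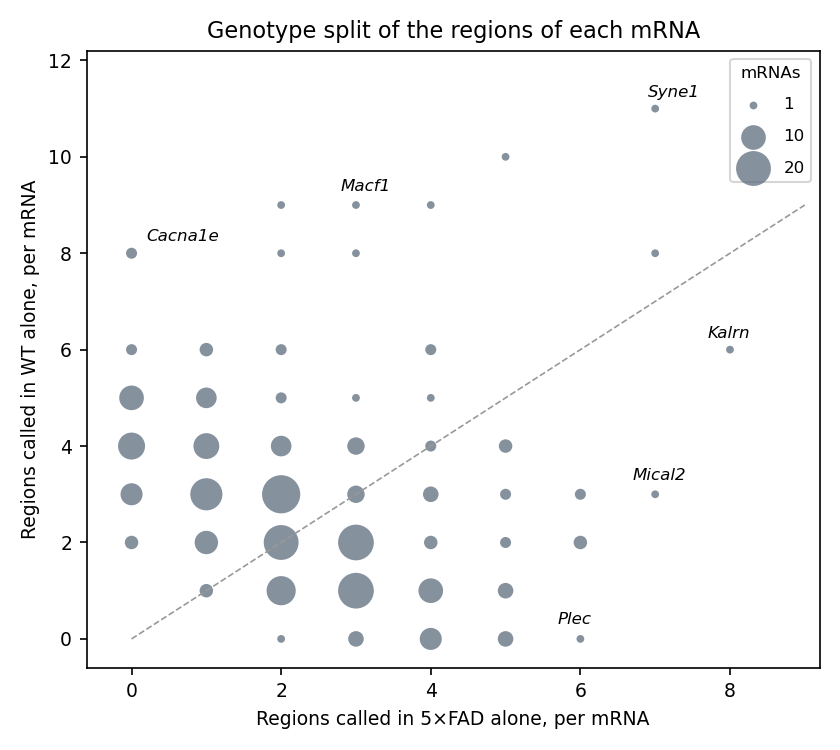
Number of regions called in 5×FAD alone (x axis) and in WT alone (y axis) for each of the 275 mRNAs; the area of a point gives how many mRNAs share it, and the dashed line marks equal numbers. Most mRNAs lie at 1 to 4 regions on both axes, Plec and Cacna1e lie on the axes, and Syne1 lies at 7 and 11.

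Kif1a shows how the split ran along 1 mRNA. Of its exons 5 to 23, exons 6, 12 and 13 were called in 5×FAD alone, exons 8, 9, 14, 15, 18, 19, 22 and 23 in WT alone, exons 7 and 11 in both and exon 5 in neither. Exon 12 had FE of 17.6, 21.6 and 19.1 in 5×FAD and no peak in WT. Exon 15, further along, had no peak in 5×FAD and 54.9, 64.5 and 48.2 in WT. Every sample of the called genotype listed exons 12 and 15, and the 2 genotypes did not overlap on them. In Cyfip2 the call changed from exon to exon. Exon 22 was listed in WT alone (27.4, 30.0 and 28.6), exon 23 in all 6 samples (40.7, 44.6 and 40.7 in 5×FAD, against 41.6, 48.5 and 55.3 in WT) and exon 24 in 5×FAD alone (32.9, 44.5 and 37.5). Mical2 carried such a change over exons 9 to 13. Exon 9 had FE of 10.7, 12.5 and 12.1 in 5×FAD and no peak in WT, and exon 10 had 19.0, 22.9 and 20.5 in 5×FAD, against 113, 137 and 120 in WT. Exon 12 then had no peak in 5×FAD and 156, 185 and 158 in WT, and exon 13 had 5.22, 2.99 and 2.76 in 5×FAD and none in WT. Peaks of both genotypes thus stood side by side within 682 nt of mRNA. In Macf1, 9 of 12 regions were called in WT alone and 3 in 5×FAD alone. Its exons 56, 57, 60 and 61 had FE of 107 to 173 in the WT samples and no peak in 5×FAD.

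Neighbours that met across an intron mostly had the same call. Of 315 such pairs with each region called in 1 genotype alone, 123 were both 5×FAD alone, 163 both WT alone and 29 (9.21%) one of each. Beyond that the calls mixed. Of 392 pairs on other exons 1 to 1000 nt apart, 185 (47.2%) were one of each, as were 73 of 168 pairs (43.5%) over 1000 nt apart. Regions in neighbouring positions share samples and mRNA, so these are counts without a test. Within 1 exon, 21 of 57 pairs were one of each. In exon 41 of Ank3, the ankyrin of the axon initial segment, a region called in 5×FAD alone and one called in WT alone were 625 nt apart. In exon 15 of Ncan, a proteoglycan of the brain's matrix, 2 regions called in 5×FAD alone flanked 1 called in WT alone, with 332 and 367 nt between them. In Chrm1, the region at the start codon and 1 in the coding sequence were called in 5×FAD alone, and the regions at the stop codon and in the 3′UTR of the same exon in WT alone. Its last region had no peak in 5×FAD and FE of 186, 155 and 197 in WT.

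**Figure D4:**
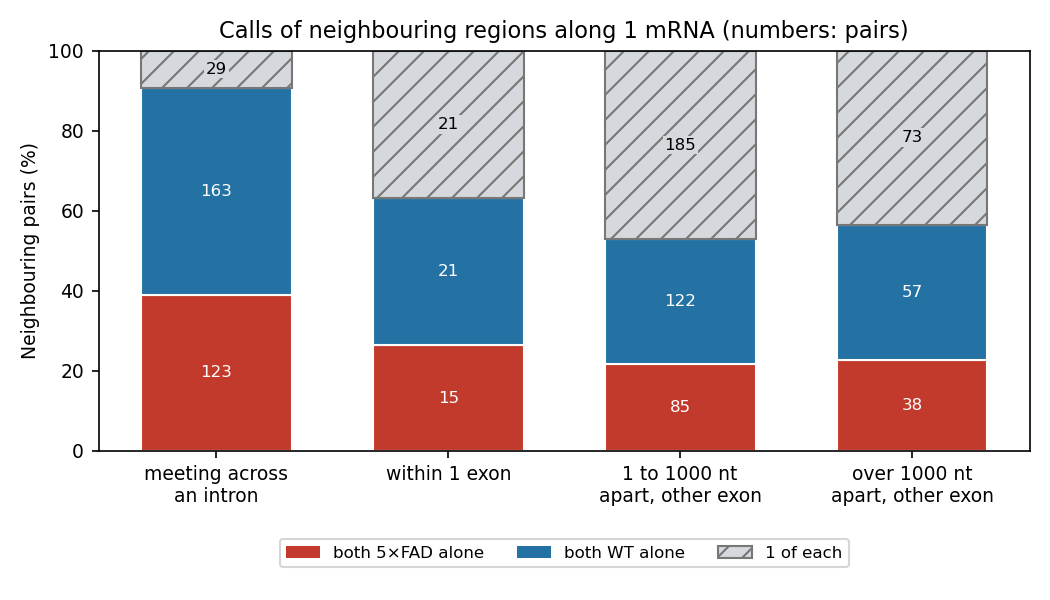
Neighbouring regions of 1 mRNA, each called in 1 genotype alone, by the distance between them along the spliced mRNA (x axis); the y axis gives the share of pairs (%), red for both called in 5×FAD alone, blue for both in WT alone and hatched for 1 of each, with the number of pairs in each part. Of the pairs that met across an intron 29 of 315 were of 1 each, and of those 1 to 1000 nt apart on other exons 185 of 392.

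One pair of adjacent whole exons of Dpp6 shows the change of call at a splice junction. Exon 11 (chr5:27652177-27652300, plus strand) was called in 5×FAD alone, with FE of 84.2, 0 and 85.0 in 5×FAD and no peak in WT, and exon 12 (chr5:27653700-27653738, plus strand) in WT alone, with no peak in 5×FAD and FE of 0, 6.91 and 4.66 in WT. The capitals mark the same triplet run. The last base of the first stretch is followed by the first base of the other in the mRNA.
Dpp6 exon 11, 5×FAD alone: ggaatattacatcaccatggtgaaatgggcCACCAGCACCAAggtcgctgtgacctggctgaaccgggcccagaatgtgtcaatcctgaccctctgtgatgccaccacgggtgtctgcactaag
Dpp6 exon 12, WT alone: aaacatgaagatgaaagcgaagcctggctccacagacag

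In 12 of the 275 mRNAs (4.36%) every called region was called in 5×FAD alone, and in 25 (9.09%) every one in WT alone. Shares over all listed mRNAs are not given, so these counts are only a description. Plec, which encodes the linker plectin, led the first kind with 6 regions called in 5×FAD alone and 2 called in neither. Its 5×FAD samples each had a peak in 6 regions, with a summed FE of 247, 281 and 355, and its WT samples in 1, 1 and 0 regions, with 17.9, 3.77 and 0. Hk1, the hexokinase of brain, had 5 regions called in 5×FAD alone, with a summed FE of 51.3, 78.9 and 75.7 in 5×FAD, against 0, 2.96 and 3.58 in WT. Ndrg3 and Nisch had 5 such regions each and no peak in any WT sample. Ndrg3 summed to 190, 142 and 151 and Nisch, which binds integrins and phosphoinositides, to 76.8, 61.9 and 103 in 5×FAD.

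In the WT direction, the calcium channel subunit Cacna1e had 8 regions called in WT alone, and its only 5×FAD peak was 1 in the last exon of replicate 2. Its summed FE was 0, 5.73 and 0 in 5×FAD and 106, 216 and 165 in WT. Vps41, of the complex that fuses late endosomes with lysosomes, had 8 regions on exons 1 to 11, all called in WT alone, with a summed FE of 0, 0 and 3.83 in 5×FAD, against 161, 326 and 411 in WT. Atp2c1, a calcium and manganese pump of the Golgi, had 6 regions on the consecutive exons 8 to 13, with no peak in 5×FAD and 178, 231 and 224 in WT. Ubr4, a giant ubiquitin ligase, had 6 as well, at 367, 619 and 576 in WT and none in 5×FAD. The 5×FAD and WT samples did not overlap in any of these 8 mRNAs, which were chosen for that.

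The summed FE of an mRNA was compared between genotypes by limma over the 1121 overlay mRNAs (those with a peak in 2 or more samples of each genotype), on log2(FE + 1). Of the 275 selected mRNAs, 246 were among them. By limma 54 (22.0%) rose and 75 (30.5%) fell in 5×FAD, with a Benjamini-Hochberg adjusted p below 0.05 and a difference of 2-fold or more, where over all overlay mRNAs 20.8% rose and 32.3% fell. The share of selected mRNAs that changed was near that background. Their median log2 fold change was -0.56, beside -0.47 over all overlay mRNAs, and their median size of change was 1.75, beside 2.20. After each sample was centred on its median over overlay mRNAs, 80 of the selected mRNAs rose and 55 fell, so that 59.3% of the calls were upward, against 41.9% without centring. A direction over the whole set is therefore not settled by these lists. A missing peak was entered as an FE of 0. The peaks counted to select an mRNA are also those summed here, so its difference between genotypes is not independent of the selection.

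Among the overlay mRNAs, the largest rises were of Ptcd3, Prex1, Nmt1, Krt8 and Plec. Selected mRNAs with peaks in 1 genotype only, such as Ndrg3 and Ubr4, were not in this test. Prex1 had 5 regions with a peak in some 5×FAD sample and 1 in some WT sample, and Plec 6 and 2. Both thus reached 5 regions through the genotype in which they were high. Prex1, an exchange factor for Rac, summed to an FE of 1182, 612 and 432 in 5×FAD, against 7.16, 7.13 and 6.59 in WT (log2 fold change 6.42 ± 0.41 SE, limma adjusted p = 0.000147). All 5×FAD samples were far above all WT samples, although the 3 differed by over 2-fold among themselves. Nmt1, which attaches myristate to proteins, summed to 453, 556 and 588 in 5×FAD and to 4.85, 6.98 and 6.13 in WT (6.26 ± 0.23, limma adjusted p = 2.18e-05). Krt8, a keratin of simple epithelia, summed to 1262, 1533 and 1320 in 5×FAD, against 26.4, 6.11 and 40.1 in WT (6.10 ± 0.70, limma adjusted p = 0.00106). Its sum counts both exons 1 and 2, which had nearly equal FE, and its call was kept with the highest FE of an mRNA in place of the sum. Ptcd3, a protein of the mitochondrial ribosome, had 549, 364 and 711 in 5×FAD and 0, 35.6 and 2.29 in WT (6.73 ± 1.37, limma adjusted p = 0.00964). In Plec (6.02 ± 1.10, limma adjusted p = 0.00630) and Ptcd3 the call was lost when only peaks with an FE of at least 5 were used, since fewer than 2 WT samples then had a peak.

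Among the overlay mRNAs, the largest falls were of Atp8a1, Gm15800, Iqsec1, Mbp and Nos1ap. Gm15800, Iqsec1 and Mbp had 9, 6 and 6 regions with a peak in some WT sample. In some 5×FAD sample they had 2, 1 and 3, so all reached 5 regions through WT. Mbp, the basic protein of myelin, summed to 8.24, 8.84 and 9.75 in 5×FAD, against 684, 713 and 655 in WT (log2 fold change -6.11 ± 0.18 SE, limma adjusted p = 1.54e-05). Most of that lay in its exons 1 and 2, which had no peak in 5×FAD, while its last exon had a peak in all 6 samples, with 3.37, 3.34 and 3.52 in 5×FAD and 7.41, 6.13 and 5.62 in WT. Exons 1 and 2 of Mbp had nearly equal FE in WT, and the sum counts both. With the highest FE of an mRNA in place of the sum, the call of Mbp was kept. Other oligodendrocyte markers did not move one way. Mag was listed in 5×FAD alone, with a summed FE of 8.49, 12.3 and 7.52, Opalin was listed in WT alone, at 252, 198 and 180, and Mog had no peak. Their part in the fall of Mbp was not tested. Atp8a1, a phospholipid flippase, summed to 1.85, 0 and 5.04 in 5×FAD and to 466, 395 and 488 in WT (-7.44 ± 0.69, limma adjusted p = 0.000527). Iqsec1, an exchange factor for Arf6 at synapses, summed to 1.85, 2.32 and 0 in 5×FAD and to 149, 155 and 150 in WT (-6.17 ± 0.51, limma adjusted p = 0.000357). Nos1ap, an adaptor of neuronal nitric oxide synthase, summed to 10.5, 9.31 and 9.91 in 5×FAD and to 660, 582 and 975 in WT (-6.05 ± 0.26, limma adjusted p = 4.07e-05). Gm15800, whose RefSeq model is coding and has 76 exons, summed to 9.80, 8.09 and 4.19 in 5×FAD and 572, 618 and 626 in WT (-6.24 ± 0.33, limma adjusted p = 7.25e-05). With peaks of FE of at least 5 only, the calls of Atp8a1, Gm15800, Iqsec1 and Mbp were lost as well.

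**Figure D5:**
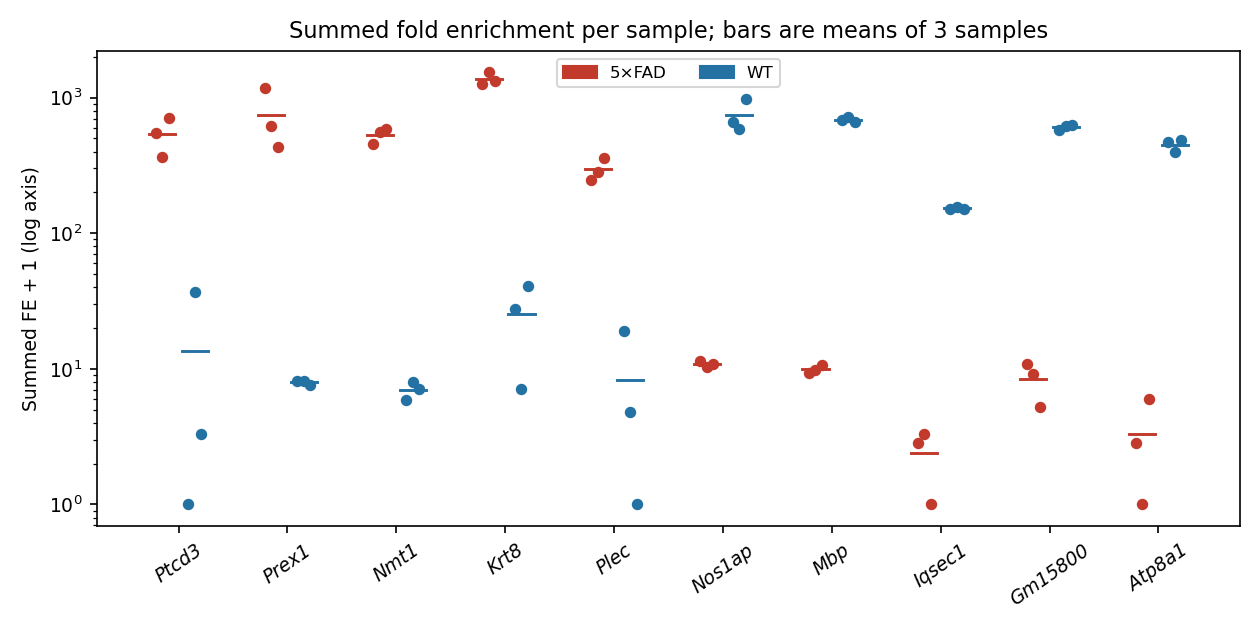
Summed FE plus 1 (log y axis) of the 5 selected overlay mRNAs with the largest rise and the 5 with the largest fall in 5×FAD by limma; each point is 1 of 3 samples per genotype, red for 5×FAD and blue for WT, and bars are means. In all 10 mRNAs the 3 samples of 5×FAD lie apart from the 3 of WT, as the choice of these mRNAs required.

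Of the 12 mRNAs with the most regions limma called 6, a share near that of all selected mRNAs (129 of 246), and 5 of the 6 fell. Syne1 summed to 153, 377 and 321 in 5×FAD, against 1428, 1196 and 763 in WT (log2 fold change -2.04 ± 0.46 SE, limma adjusted p = 0.0134). Macf1 summed to 28.1, 39.9 and 28.4 in 5×FAD and 633, 654 and 710 in WT, and on the log2 scale it fell by 4.35 ± 0.23 (limma adjusted p = 6.79e-05). Sptbn1 summed to 16.2, 15.9 and 13.8 in 5×FAD and 80.9, 89.8 and 60.3 in WT (-2.24 ± 0.24, limma adjusted p = 0.000818). Neither genotype's range reached the other in these 3 mRNAs. Macf1 and Sptbn1 each had 9 regions with a peak in some WT sample and 3 in some 5×FAD sample. Both thus reached 5 regions through WT, where they were high. Kif1a fell by 1.56 ± 0.24 (limma adjusted p = 0.00323) and Huwe1 by 1.51 ± 0.18 (limma adjusted p = 0.00126) on the log2 scale. After centring, Syne1, Kif1a and Huwe1 no longer passed, and with FE averaged over the peaks of an mRNA Sptbn1, Kif1a and Huwe1 did not. Huwe1 was also not called on its highest FE. Lrp1 rose, with a summed FE of 436, 604 and 390 in 5×FAD and of 101, 101 and 87.0 in WT (2.27 ± 0.25, limma adjusted p = 0.000919). Most of its FE in 5×FAD lay on exons 67, 70, 71 and 72, called in 5×FAD alone, while exons 14, 38 and 39 were called in WT alone. Exon 71 had FE of 178, 282 and 222 in 5×FAD and no peak in WT. Dync1h1 (-0.53 ± 0.22), Dst (-0.65 ± 0.23), Kalrn (-0.81 ± 0.46), Itpr1 (-0.46 ± 0.20) and Dpp6 (0.67 ± 0.41) did not pass, although all 5 had regions called in each genotype alone. In Dync1h1 the summed FE was 143, 113 and 106 in 5×FAD and 161, 192 and 169 in WT, and none of its regions was called in both genotypes.

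Genes of the synapse and cytoskeleton were found on both sides. The AMPA receptor subunit Gria1 rose (summed FE of 64.1, 77.9 and 70.3 in 5×FAD, against 24.6, 30.2 and 38.6 in WT, log2 fold change 1.18 ± 0.25, limma adjusted p = 0.0102), and so did the ankyrin Ank2 (480, 356 and 335, against 25.1, 25.5 and 18.2 in WT, 4.03 ± 0.26, limma adjusted p = 0.000147). The synaptic vesicle calcium sensor Syt1 fell (3.19, 2.52 and 2.79 in 5×FAD, against 43.4, 40.8 and 53.9 in WT, -3.61 ± 0.21, limma adjusted p = 0.000107), as did the dendritic Map2 (-3.34 ± 0.25, limma adjusted p = 0.000269). The calls of Gria1 and Map2 were lost when FE was averaged over the peaks of an mRNA in place of summed, that of Gria1 also with a pseudocount of 10 or with the highest FE of an mRNA, and that of Syt1 with peaks of FE of at least 5 only. Gria1 and Ank2 had 6 and 7 regions with a peak in some 5×FAD sample, and 4 and 3 in some WT sample. Syt1 and Map2 had 1 each in some 5×FAD sample, and 7 and 8 in some WT sample. Each of these mRNAs thus reached 5 regions through the genotype in which it was high. Camk2a, with 10 regions, differed by -0.07 ± 0.46 and the vesicle-scission GTPase Dnm1, also with 10, by 0.02 ± 0.24. Of the proteins of translation and RNA silencing, Eef1a2, the neuronal elongation factor, rose by 2.81 ± 0.22 (limma adjusted p = 0.000303), and Eif4g1, the scaffold of initiation, and Ago2, which cleaves targets of small RNAs, had log2 fold changes of -3.38 ± 0.26 and -4.61 ± 0.23 (limma adjusted p of 0.000275 and 5.83e-05).

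Single regions often carried an mRNA's FE. The region with the most FE held a median of 42.6% of the summed FE over all 6 samples, with a range of 13.3% (Dst) to 84.4%. It held 71.3% in Iqsec1, 62.1% in Nos1ap and 59.7% in Atp8a1, and 22.4% in Dync1h1.

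The 96 regions called in both genotypes lay on 75 mRNAs, and 64 of them differed by 2-fold or more in mean FE. The mean was higher in 5×FAD in 39 and lower in 57. A missing peak counted as 0 in these means. The same counts were not made for the 401 regions called in both on other mRNAs, so these are only a description. Of the 96 regions, the 5 with the largest ratios were all higher in WT, those of Huwe1, Arhgef7, Atp8a1, Dip2b and Setd5. In each of these at least 1 of the 5×FAD samples had no peak. The Huwe1 region had FE of 0, 1.83 and 2.51 in 5×FAD and 250, 270 and 254 in WT. Setd5, a chromatin protein, had a peak in 2 samples of each genotype, at 0, 4.13 and 4.69 in 5×FAD and at 0, 567 and 615 in WT. A stretch printed here is a whole merged region, and the peaks of the 2 genotypes may cover different parts of it. The regions of Atp8a1, 61 nt in exon 19, and of Dip2b, the whole exon 22, are coding and are printed. They lie at chr5:67738413-67738473, minus strand, and chr15:100193840-100193961, plus strand, with FE of 1.85, 0 and 3.21 in 5×FAD against 285, 225 and 294 in WT for Atp8a1, and of 6.07, 0 and 4.54 against 482, 613 and 549 in WT for Dip2b.
Atp8a1 exon 19, both genotypes: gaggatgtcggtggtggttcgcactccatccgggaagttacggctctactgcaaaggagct
Dip2b exon 22, both genotypes: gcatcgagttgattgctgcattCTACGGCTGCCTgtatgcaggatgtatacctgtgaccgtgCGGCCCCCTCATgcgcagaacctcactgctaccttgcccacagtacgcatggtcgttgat

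In base composition the selected regions were like the others. On the sense strand, the median share of C was 26.1% over 1784 selected regions and 26.3% over 7445 others. A match of CNN repeated 4 times, on the sense strand and with overlaps allowed, stood in 46.4% of the selected and 52.3% of the other regions, but the selected ones were shorter. Among regions of 60 to 119 nt, 34.3% of the selected and 35.1% of the others held a match, among those of 120 to 179 nt 57.0% and 55.0%, and among those of 180 to 299 nt 72.2% and 70.3%. Of the selected regions called in 5×FAD alone 45.4% held a match, and of those called in WT alone 42.6%, at median lengths of 114 and 110 nt. These shares are a description, and a match is not a site.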

How the data were processed

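Per the methods and the submitters' processing notes, reads were trimmed with cutadapt 1.9.3, checked with FastQC and aligned to mm10 with HISAT2 2.04. MACS then called peaks per sample against the input, and peaks off coding-gene exons or overlapping IgG peaks were removed. The authors' fold enrichment is a ratio, used as deposited, and the deposited FDR column was read as percent from its values, since its header names no scale. No column of another sample was used. Spreadsheet dates in 14 cells were decoded. The 6 lists were merged as described, and an FE is summed over the peaks of a region or mRNA. Transcript models came from RefSeq, the model that covers most of an mRNA's region bases. FE was compared by limma 3.58.1 (R 4.3.3) on log2(FE + 1), with Benjamini-Hochberg adjustment over the overlay mRNAs, and tested on simulated data. FE was not scaled. The selected mRNAs, gene lists and tests were chosen with earlier results of these data known. Named mRNAs are the 12 with the most regions, up to 4 of each list, up to 4 per genotype with every called region in it, 5 by limma in each direction, 6 by gap and 5 with the largest ratio in a region called in both. Ank3, Ncan, Mical2, Chrm1 and others given as examples of neighbouring regions or of their list were named after their values were seen. Some mRNAs that this rule takes are not reported here. Alternatives were other minimums, mergings, call rules, pseudocounts, summaries of FE, centring, filters, fits, a replicate block and leaving out each sample.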

Additional observations from a re-analysis of the deposited data

How the results depend on the processing

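With a minimum of 4 or 6 regions, 518 or 137 mRNAs were selected, with 2766 or 1104 regions, of which 976 or 373 were called in 5×FAD alone, 1198 or 482 in WT alone and 154 or 61 in both. With regions that met across an intron joined, 129 mRNAs and 806 regions were left, 274 called in 5×FAD alone and 342 in WT alone, and the median gap was 6166 bp. With rows merged only where they overlapped by at least 50% of both, that gap was 3676 bp. With peaks of FE of at least 5, 412 regions were called in 5×FAD alone and 46 in both. Regions called in both numbered 51 with a peak in all 3 samples and 163 with a peak in at least 1. In settings chosen after seeing the data, the 5×FAD lists alone gave 64 mRNAs with 385 regions and the WT lists alone 79 with 513. Leaving out 1 sample gave 252 to 269 mRNAs, 483 to 645 regions called in 5×FAD alone, 573 to 770 in WT alone and 70 to 81 in both. By limma it gave 48 to 54 selected mRNAs that rose and 70 to 76 that fell, and 109 of the 129 calls were kept in every such fit. Over all settings tried, 53 of the 129 were kept in every one, and none was turned round. The other limma settings gave 44 to 80 rises and 55 to 97 falls.

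Replicate numbers did not pair the samples. The deviations of same-numbered samples correlated at 0.00, -0.01 and -0.04 over 1121 mRNAs. With the replicate block 48 rose and 66 fell, and Syne1 was not called. Depth is unknown, an absent peak may be a peak under the caller's limit, and the lists give each exon its own peak, so the number of regions is a count of listed stretches, not of acetylated cytidines. Why peaks end at exon ends was not tested.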
